A study of Mus musculus with 4 samples.

Results

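Intergenic islands are stretches of open chromatin that overlap no protein-coding gene. They were taken here from a deposited table of DNase-seq islands if they overlapped no protein-coding gene body of the RefSeq annotation of mm10 and lay over 1 kb and up to 50 kb from the nearest end of such a gene. Of the 16584 islands in the table, 2630 (15.9%) met this rule. A further 9236 islands lay within 1 kb of a gene end, 4034 lay deeper within a gene, and 684 lay over 50 kb from any gene. Position chose the islands, so their reads and folds were not used in the choice. Distances ran from island edges, so a wide island more readily reached a gene, and width was not independent of the choice. With distances from island midpoints 2782 islands met the rule, of which 2616 were the same.

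The chromatin came from lymphoid tissue inducer (LTi) cells of Peyer's patches of C57BL/6 mice, sorted as lineage-negative CD127+ cells that carried CCR6 and lacked KLRG1, NK1.1 and NKp46. There were 2 libraries of a control group (Tcf7+/+) and 2 of a Tcf7-KO group (Tcf7fl/fl-RorcCre), which carries floxed Tcf7 alleles and a Cre recombinase, so that deletion is limited to cells in which the Cre has been active. Per the labels, each library began with 300 cells, whose chromatin was digested for 5 minutes with 0.3 U of the enzyme DNase I. The labels give no age, do not say whether the controls carried the Cre, and do not say whether animals were pooled. Each island of the table carries 1 peak-side and 1 control-side read count, and no header or label ties either count to a library or genotype. The effect of Tcf7 loss on these islands was therefore not analysed here, no value per library was used, and no test between groups was made.

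DNase I cuts DNA where nucleosomes are displaced, and such sites mark promoters and distal elements such as enhancers. Enhancers bind sequence-specific transcription factors and can act on a promoter over long distances, so the nearest gene is a positional label and not a shown target. LTi cells are innate lymphoid cells that induce lymph nodes and Peyer's patches through lymphotoxin and RANK ligand. TCF-1, the product of Tcf7, binds DNA through an HMG box and recruits beta-catenin or corepressors of the TLE family.

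The islands were made with SICER, which merges enriched windows of 200 bp that lie close together into broader regions. Throughout, a read pair such as "15 and 19" gives peak-side reads and then control-side reads. The fold, as the authors deposited it, divides the peak-side reads by 0.345 times the control-side reads. The range in parentheses after a fold is its exact (Clopper-Pearson) 95% interval, which covers counting error only. An island is called where the authors' deposited table gives it an FDR under 0.05. The level of every fold rests on the factor of 0.345, and the FDR treats the scaled control-side reads as known. Islands are not replicates of one another. In a bulk sample, an island open in fewer cells and an island less open in every cell cannot be told apart.

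A genome sequence was not used here, so the islands' own bases are not shown. Many intergenic islands nevertheless lay over annotated non-coding genes, and RefSeq (GRCm38.p6) gives the promoter or mature sequence of some of them. The promoters of 4 long non-coding RNAs (lncRNAs) under read-rich islands are printed here, each running from 250 bases before the transcription start to 50 after it, because they show what kind of sequence some of these islands hold. They were chosen after their values were seen. Capitals mark exact matches, on either strand, to the SP/KLF GC box (GGGCGG), the ETS core (CCGGAA), the CCAAT box (CCAAT), the TATA box (TATAAA), the RUNX motif (TGTGGTT) and the TCF/LEF motif (CTTTGAT). All 4 lie on the minus strand: Chaserr at chr7:73558346-73558645, Malat1 at chr19:5802623-5802922, Snhg5 at chr9:88522848-88523147 and Snhg8 at chr3:123508287-123508586.
Chaserr: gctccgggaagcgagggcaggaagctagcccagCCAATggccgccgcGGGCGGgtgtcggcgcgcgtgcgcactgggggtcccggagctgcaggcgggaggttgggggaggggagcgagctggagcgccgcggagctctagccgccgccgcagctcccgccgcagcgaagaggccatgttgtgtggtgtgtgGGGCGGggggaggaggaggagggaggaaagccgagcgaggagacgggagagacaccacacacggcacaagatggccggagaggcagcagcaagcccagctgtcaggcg
Malat1: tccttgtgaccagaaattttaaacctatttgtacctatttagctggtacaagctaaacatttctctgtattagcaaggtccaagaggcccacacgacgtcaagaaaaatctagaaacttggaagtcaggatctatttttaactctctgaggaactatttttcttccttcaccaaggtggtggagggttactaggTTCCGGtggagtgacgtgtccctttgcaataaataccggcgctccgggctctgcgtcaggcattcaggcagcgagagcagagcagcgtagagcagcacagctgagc
Snhg5: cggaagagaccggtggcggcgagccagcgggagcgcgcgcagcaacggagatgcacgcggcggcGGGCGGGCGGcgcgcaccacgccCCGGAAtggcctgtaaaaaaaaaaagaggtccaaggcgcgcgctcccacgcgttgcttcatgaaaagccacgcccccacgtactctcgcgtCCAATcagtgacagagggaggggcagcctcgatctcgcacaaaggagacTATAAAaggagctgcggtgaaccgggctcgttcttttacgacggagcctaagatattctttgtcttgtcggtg
Snhg8: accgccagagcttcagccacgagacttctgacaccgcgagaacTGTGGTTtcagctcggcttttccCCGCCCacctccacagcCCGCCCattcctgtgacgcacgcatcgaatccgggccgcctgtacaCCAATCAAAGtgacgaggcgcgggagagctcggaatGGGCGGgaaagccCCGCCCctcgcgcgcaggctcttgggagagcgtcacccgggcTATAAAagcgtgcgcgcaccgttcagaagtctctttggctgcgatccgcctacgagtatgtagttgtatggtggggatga

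Chaserr, a lncRNA that lies beside Chd2 and is known to restrain its expression, lay under an island at chr7:73556201-73559600 with 70 and 93 reads (fold 2.18, 1.58 to 3.01), 14455 bp from Chd2. Its promoter is 72.3% G and C with 30 CpG dinucleotides. The island over the promoter of Malat1, an abundant nuclear lncRNA, at chr19:5802001-5804000, had 50 and 95 reads (fold 1.53, 1.06 to 2.17). The Malat1 window is less rich in G and C (47.0%, 10 CpG) and holds no GC box by this search. Snhg5 and Snhg8 are host genes of small nucleolar RNAs. Their islands had 46 and 77 reads (fold 1.73, 1.18 to 2.53) and 38 and 82 reads (fold 1.34, 0.890 to 2.00). Both promoters hold GC boxes, a CCAAT box and a TATA box, and the TCF/LEF match of the Snhg8 promoter, read on the opposite strand, overlaps its CCAAT box. A match shows only that these letters are present and is no shown binding site.

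Intergenic islands also covered microRNA (miRNA) genes. The mature sequences of 8 of these miRNAs, chosen after their islands were seen as members of well-known clusters or families, are given with the seed (bases 2 to 8) in capitals. The seed is the part that pairs with target transcripts.
miR-17-5p: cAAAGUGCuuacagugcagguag
miR-18a-5p: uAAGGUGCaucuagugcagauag
miR-23a-3p: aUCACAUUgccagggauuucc
miR-27a-3p: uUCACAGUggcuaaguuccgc
miR-24-3p: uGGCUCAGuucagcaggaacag
miR-132-3p: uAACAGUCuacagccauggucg
miR-212-3p: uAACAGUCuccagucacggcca
let-7i-5p: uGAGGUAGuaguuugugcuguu

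The miR-132-3p and miR-212-3p seeds were identical (AACAGUC), and both genes lay under 1 island at chr11:75172601-75174400 with 21 and 36 reads (fold 1.69, 0.939 to 2.98). The other printed seeds were shared with no other mature miRNA under these islands. The first genes of the miR-17 to miR-92 cluster, a regulator of lymphocyte growth and survival, lay at the end of an island at chr14:115041801-115044000 with 20 and 33 reads (fold 1.76, 0.956 to 3.16). This island ended at the first base of the Mir19a hairpin, so mature miR-19a-3p lay outside it. Mir23a, Mir27a and Mir24-2, which are made from 1 primary transcript, lay under an island at chr8:84207801-84209200 with 10 and 12 reads (fold 2.42, 0.935 to 6.10). The let-7i gene lay under an island at chr10:122985001-122988400 with 31 and 47 reads (fold 1.91, 1.17 to 3.08). Reads were thus few at the miR-23a cluster, and only the let-7i interval stayed above 1 among these 4 islands.

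Intergenic islands were small and thinly covered. They spanned 4.83 Mb, 14.1% of the sequence under all islands, and held 45948 peak-side reads, 10.8% of the total, with 65415 reads on the control side. The median width was 1600 bp (interquartile range 1000 to 2400, full range 200 to 8000), against 2000 bp at gene ends. The median was 13 peak-side reads (11 to 18, from 8 to 2581) and 18 control-side reads (12 to 27, from 0 to 3535), against medians of 23 and 37 at gene ends, 14 and 18 within genes and 13 and 16 beyond 50 kb. Of the islands, 868 (33.0%) had 8 to 11 peak-side reads, near the lowest count of 8 in the table. That share was 33.6% beyond 50 kb, 29.2% within genes and 8.35% at gene ends. Over all 2630 intergenic islands the interval of a single fold was wide. The median ratio of its upper to its lower bound was 4.90, and 1203 intervals reached below 1.

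The median fold was 2.27 (interquartile range 1.71 to 3.09), above that of islands at gene ends (1.86) and below those within genes (2.34) and beyond 50 kb (2.57). The pooled fold of all intergenic reads was 2.04 (2.01 to 2.06), against 1.83 (1.82 to 1.84) at gene ends. Of the 2630 islands, 2141 (81.4%, 79.9 to 82.9) were called in the authors' deposited table, beside 82.3% of all islands. This share was therefore close to the background of the table. The share was 80.8% at gene ends, 85.5% within genes and 88.0% beyond 50 kb. Only 37 (1.41%) had a fold under 1. With the sides scaled instead by their reads in all islands (a factor of 0.659), the median fold was 1.19, 931 folds lay under 1 and 8.59% were called, beside 5.93% of all islands. The gap in fold between intergenic and gene-end islands depended on depth: at 8 to 11 peak-side reads the medians were 2.37 and 1.81, at 31 to 60 reads both were 1.92, and at 61 or more reads the order was turned, with 1.66 for 23 intergenic islands and 1.92 for 328 at gene ends. Intervals of 714 called intergenic islands still reached below 1, so many single calls rest on few reads.

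**Figure D1:**
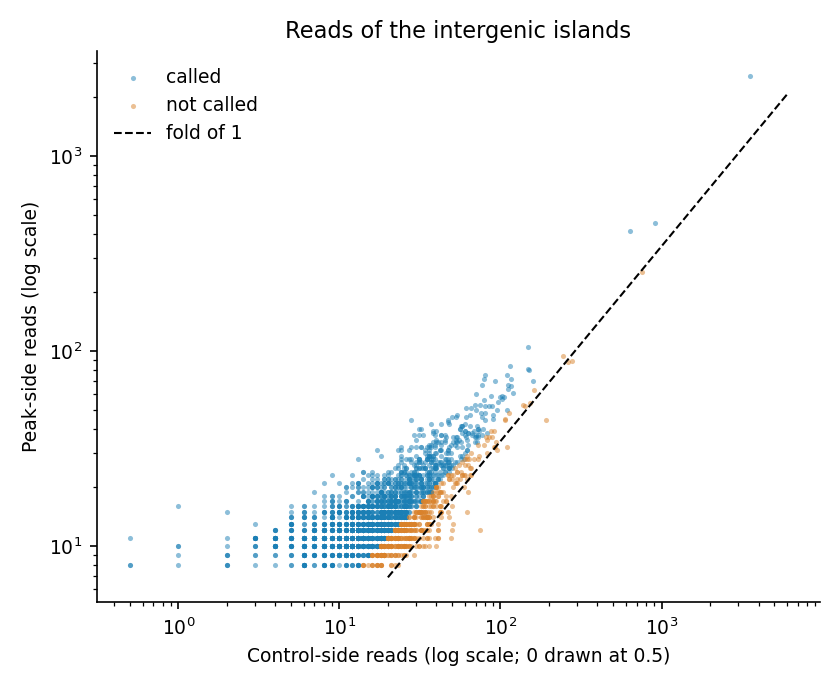
Peak-side reads against control-side reads of the 2630 intergenic islands, both on log scales, with 0 control-side reads drawn at 0.5. Blue points were called at an FDR under 0.05, orange points were not, and the dashed line is a fold of 1; most points lie between 8 and 60 peak-side reads, and 1 island stands at 2581.

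Islands became sparser with distance from genes. The median distance to the nearest gene end was 10165 bp (interquartile range 4415 to 21449). Intergenic sequence over 1 and up to 50 kb from a gene measured 619 Mb and held 4.25 islands per Mb (4.09 to 4.41), which covered 0.780% of it. The density fell from 6.47 per Mb (6.01 to 6.95) at 1 to 5 kb, with 740 islands, to 5.35 (4.91 to 5.80) at 5 to 10 kb, 4.10 (3.78 to 4.44) at 10 to 20 kb and 2.86 (2.65 to 3.07) at 20 to 50 kb, with 714 islands. The 4 intervals, which cover counting error only, did not overlap. The fold ran the other way: its median was 2.13 at 1 to 5 kb and 2.42 at 20 to 50 kb, and the share called was 77.3% and 86.7%. The median peak-side count was 13 in every distance class, and the median control-side count was 19 in the nearest and 17 in the farthest.

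Densities on either side of the nearest gene were close. Where the strand of the nearest gene was known, 1075 islands lay upstream of it (4.08 per Mb, 3.84 to 4.33) and 958 lay downstream (4.26 per Mb, 3.99 to 4.54). At 1 to 5 kb the densities were 6.31 (5.62 to 7.07) and 6.34 (5.61 to 7.13). The upstream and downstream intervals overlapped at every distance, which does not show that the densities are equal. For 597 islands the strand was not known.

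**Figure D2:**
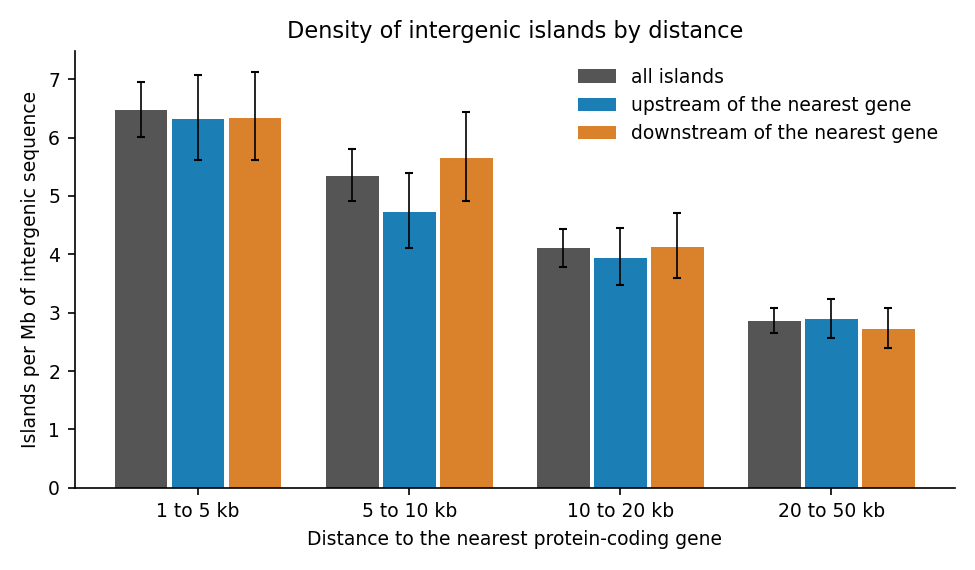
Intergenic islands per Mb of sequence (vertical axis) in 4 classes of distance to the nearest protein-coding gene, for all islands and for those upstream and downstream of that gene. Error bars are exact 95% Poisson intervals; the density falls from 6.47 to 2.86 per Mb, and upstream and downstream bars overlap in every class.

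Islands on both sides of each limit had few reads. The nearest members were 1003 bp from Gm19345 (12 and 23 reads) and 1005 bp from Nipal3 (14 and 48 reads), and the nearest islands left out as gene-end islands were 996 bp from Phyh (9 and 10 reads) and 995 bp from Col13a1 (10 and 9 reads). At the far limit, members lay 49979 bp from Efnb1 (13 and 8 reads) and 49893 bp from Tram1 (15 and 10 reads), while islands 50051 bp from Mboat1 (21 and 27 reads) and 50059 bp from Cnih3 (13 and 10 reads) fell outside.

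The 2630 islands had 2071 nearest genes, 9.46% of 21887 protein-coding genes. Of these genes, 1639 had 1 island, 336 had 2, 72 had 3, 18 had 4, 5 had 5 and 1 had 6. Genes that were nearest to an intergenic island more often had an island at their own end: 1351 of 2071 (65.2%) did, against 47.2% of all genes, and 75 of the 96 genes with 3 or more did (78.1%). These genes also had more intergenic sequence nearest to them, a median of 36.9 kb, and 52.6 kb for the 96, against 21.1 kb over all genes with any. The part that this room plays in the counts was not tested. Of the intergenic islands, 45.7% had another island of the table within 10 kb, against 43.7% of islands within genes, 31.7% of gene-end islands and 22.4% of those beyond 50 kb.

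Cd83, which encodes a surface glycoprotein of activated antigen-presenting and lymphoid cells that stabilises MHC class II, had the most intergenic islands. Its 6 islands lay on both sides of the gene on chromosome 13, from 7712 to 44312 bp away. In genome order they had 15, 11, 11, 16, 11 and 11 peak-side reads and 19, 15, 7, 22, 7 and 9 control-side reads. All 6 were called, and the pooled fold was 2.75 (1.98 to 3.83), the highest among the 12 genes with most islands. The peak-side counts were even, and the higher folds came with the lower control-side counts.

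The next genes each had 5 islands and differed in how the reads were spread. Irf2bpl, a nuclear protein of the IRF2-binding protein family, had 26, 11, 9, 17 and 67 peak-side and 45, 21, 6, 27 and 77 control-side reads in genome order. The last of these, at chr12:86890601-86895800, lay 5787 bp from the gene and held more reads than the other 4 together on the peak side. Ptma, the gene of the abundant nuclear protein prothymosin alpha, had 53, 11, 15, 37 and 12 peak-side and 75, 10, 33, 77 and 18 control-side reads, all on 1 side, with a pooled fold of 1.74 (1.39 to 2.18). Its read-rich island lay at chr1:86487201-86488200, 38357 bp away. Rpl14, a protein of the large ribosomal subunit, had 26, 13, 9, 13 and 9 peak-side and 39, 26, 12, 15 and 12 control-side reads between 2348 and 28148 bp away.

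Both immediate early genes among the 12 had 5 islands. Fos, the AP-1 subunit induced within minutes of stimulation, had 14, 12, 48, 14 and 38 peak-side and 15, 10, 80, 16 and 67 control-side reads, and all 5 islands were called. The read-rich island at chr12:85455001-85456000, 17890 bp away, was 1000 bp wide and had a fold of 1.74 (1.19 to 2.52). Ier5, an early response gene, had 12, 14, 13, 12 and 24 peak-side and 25, 20, 36, 18 and 54 control-side reads, on 1 side of the gene. Its pooled fold was 1.42 (1.06 to 1.89) and only 2 of its 5 islands were called. Fos thus had more reads and a higher fold than Ier5 at the same number of islands, although the 2 intervals overlapped.

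The other 6 genes among the 12 had 4 islands each. Dad1 (117 and 138 reads), a subunit of the oligosaccharyltransferase, is taken up below. Zswim4 (107 and 162 reads) had its 4 islands from 1742 to 11942 bp away, and the nearest of them covered the miR-23a cluster. Sfi1 (106 and 218 reads), a centrin-binding protein, had the lowest pooled fold of the 12 at 1.41 (1.11 to 1.79), and 2 of its 4 were called. Bahcc1 (96 and 151 reads), a chromatin protein, also had 2 called. Psd2 (103 and 151 reads) and Cxxc5 (89 and 100 reads), which encodes a CXXC zinc-finger protein that acts in Wnt signalling, are neighbours on chromosome 18 and all 8 of their islands were called. Between them lay 7 intergenic islands over 94.4 kb with 182 and 243 reads, of which 3 were nearest to Cxxc5. Psd2 was the only 1 of the 12 genes with no gene-end island. The intervals from Tex44 to Ptma and from Lrrc74a to Irf2bpl also held 7 each, so counts per nearest gene split some groups of neighbouring islands. With distances taken to all annotated genes, non-coding ones included, Cd83 had 2 intergenic islands, and Irf2bpl, Ier5, Rpl14, Zswim4 and Sfi1 had 0. With islands within 2 kb of each other merged, Dad1 had 1, Zswim4 and Sfi1 had 2 each and Irf2bpl had 3.

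**Figure D3:**
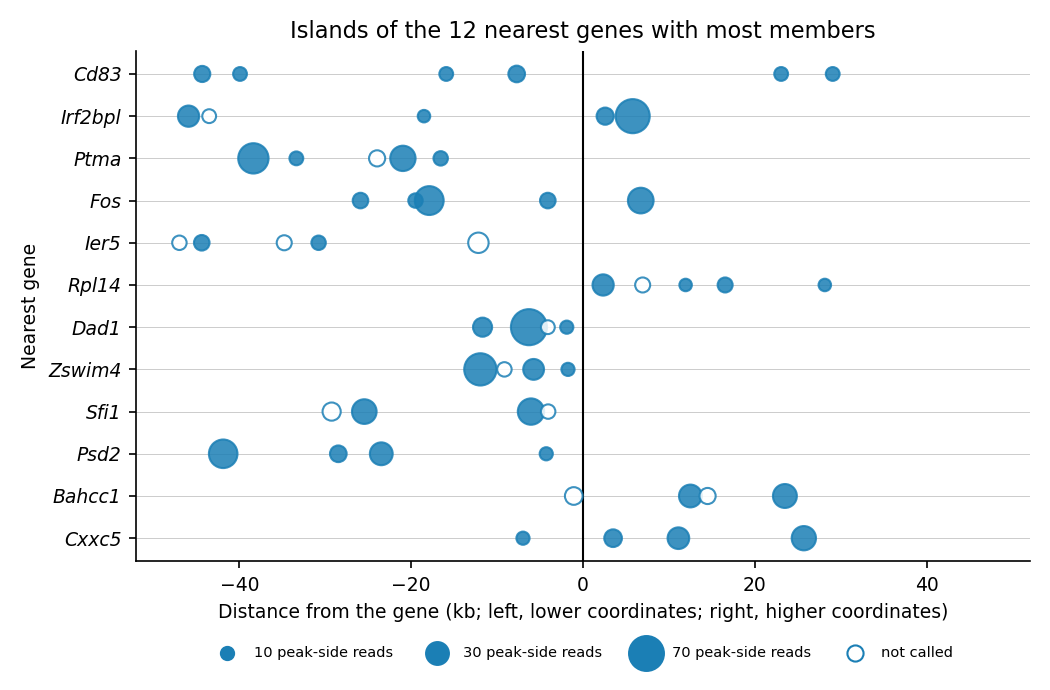
Distance in kb of each intergenic island from its nearest gene (horizontal axis; lower coordinates to the left) for the 12 genes with most islands. The area of a circle grows with peak-side reads and open circles were not called. Cd83 has 6 islands on both sides, and those of Ptma, Ier5, Rpl14, Dad1, Zswim4, Sfi1 and Psd2 lie on 1 side.

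The ranking by summed peak-side reads was led by genes with 1 or a few very read-rich islands, and it shared 6 genes with the ranking by number (Irf2bpl, Ptma, Fos, Dad1, Zswim4 and Sfi1). Rpusd4, a mitochondrial pseudouridine synthase, came first through 1 island of 800 bp at chr9:35305201-35306000. It had 2581 and 3535 reads, 3226 peak-side reads per kb against a median of 9.09, and a fold of 2.12 (2.01 to 2.23). It lay 29244 bp from Rpusd4 and inside the lncRNA gene Gm33838. Pak3, a kinase gene, had 1 island of 400 bp with 415 and 637 reads (fold 1.89, 1.67 to 2.14). Zfp825, a zinc-finger gene, had 1 island with 453 and 911 reads (fold 1.44, 1.29 to 1.62) and a pair of thin ones with 15 and 13 and with 12 and 10 reads.

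Ly6c2 and Gm40035 ranked high with folds near 1. Ly6c2, the gene of a surface antigen of monocytes and some lymphocytes, had 1 island with 253 and 755 reads (fold 0.972, 0.840 to 1.12), which was not called, and 1 with 15 and 19 reads. Gm40035 had islands with 94 and 243 reads and with 63 and 162 reads, and neither was called. Csf2ra, a subunit of the GM-CSF receptor, had islands with 52 and 142 and with 70 and 159 reads, pooled to a fold of 1.18 (0.945 to 1.46). The remaining read-rich islands lay near Dpy19l2 (105 and 149 reads in 200 bp, fold 2.04), Rpp21 (89 and 276 reads, 0.935), Gm39469 (88 and 264 reads, 0.967), Zfp958 (84 and 114 reads, 2.14) and BC035044 (81 and 148 reads, 1.59). Together the 10 islands with most reads held 9.23% of the peak-side reads. Rank by reads thus did not mean a high fold, as 4 of these 10 islands were not called. No filter for repeated or poorly mapped sequence was applied here. A high read count is therefore no shown measure of openness.

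The largest folds were those of islands with few control-side reads. Among called islands with 13 or more peak-side reads, the median, the largest was near Slc44a3, a choline transporter-like gene, with 16 and 1 reads (fold 46.4, 7.21 to 1946). It was followed by islands near Tamm41 (15 and 2 reads, 21.8, 5.06 to 196) and Txndc16 (13 and 3 reads, 12.6, 3.45 to 68.8). The next 5, near Ube2d1, Gm42226, F11r, Parp11 and Ttc17, all had 5 control-side reads and 14 to 16 peak-side reads, with folds from 8.12 to 9.28. The width of these intervals shows how little their order means. No control-side read was found in 3 islands, near Gm33153, Spi1 and Zdhhc19. Their ratio has no upper bound, and for the Spi1 island (8 and 0 reads) the lower bound of the exact interval was 4.95.

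The smallest folds among islands of that depth were near Hjurp (44 and 193 reads, 0.661, 0.465 to 0.921), Btbd16 (15 and 62, 0.702), Ppara (13 and 51, 0.739), Nipal3 (14 and 48, 0.846) and Rimbp3 (32 and 109, 0.852). Only the Hjurp interval stayed below 1. Hjurp encodes the chaperone that loads the centromeric histone variant.

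For 14 gene lists by function and cell type, 69 of 238 protein-coding genes (29.0%) were nearest to an intergenic island, beside 9.46% of all genes. Their 110 islands gave 11.5 per Mb of the intergenic sequence nearest to these genes, against 4.25 overall. The lists were written with earlier results of these data known, so their shares and densities are no independent comparison with all genes. Among LTi and group 3 innate lymphoid cell identity genes it was 6 of 20: Runx3, Cxcr5, Ret, Kit, Il1r1 and Il23r. Runx3, a RUNX transcription factor that this lineage needs, had 4 islands from 4245 to 49845 bp away with 11, 22, 12 and 11 peak-side and 16, 27, 13 and 12 control-side reads, pooled to a fold of 2.39 (1.65 to 3.45). Cxcr5, the receptor for CXCL13, had 1 island with 27 and 52 reads (fold 1.51, 0.909 to 2.44). Ret, a receptor tyrosine kinase of Peyer's patch formation, had 1 with 17 and 16 reads (fold 3.08, 1.46 to 6.52). Kit, Il1r1 and Il23r had 1 each, with folds of 4.51 (1.82 to 11.8), 2.51 (1.10 to 5.66) and 1.77 (0.757 to 3.96). No intergenic island was nearest to Id2, or to Il7r and Ccr6, which encode markers in the sort.

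Of the cytokines and TNF ligands, 6 of 15 were nearest genes, and their 10 islands had a median fold of 2.87. Tnfsf11, the gene of RANK ligand, had 3 islands 11158, 21758 and 46158 bp away with 15 and 14, 16 and 15, and 17 and 11 reads, pooled to a fold of 3.48 (2.24 to 5.43). The neighbouring genes Il17a and Il17f, which encode interleukin-17 cytokines, had 2 islands each. Their pooled folds were 2.90 (1.58 to 5.33) and 3.63 (1.93 to 6.88), and 1 of the Il17a islands was not called. Il22, a cytokine that acts on gut epithelium, had 1 island with 12 and 18 reads (fold 1.93, 0.850 to 4.24). Csf2 and Il2 had 1 each, with folds of 2.32 (1.22 to 4.35) and 2.64 (1.00 to 6.84). Lta and Ltb, the lymphotoxin genes, had none.

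In the TCF-1 and Wnt list, 5 of 19 genes were nearest to 8 islands. Tcf7, the gene floxed in the Tcf7-KO group, had 3 islands 13818, 30818 and 34618 bp away with 12 and 15, 12 and 13, and 29 and 18 reads, pooled to a fold of 3.34 (2.21 to 5.07). Only the farthest had an interval that stayed above 2, at a fold of 4.67 (2.51 to 8.94). Tle3, a corepressor, had 2 islands (37 and 40 reads in all), and Myc, a target of this pathway in many tissues, had 1 island 46040 bp away with 23 and 24 reads. Genes without one included Lef1, Axin2 and Ctnnb1.

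The list of AP-1 and immediate early genes had the largest share of nearest genes (10 of 20) and the highest density (20 islands, 24.6 per Mb). Besides Fos and Ier5, Fosb had islands with 52 and 85 and with 30 and 36 reads, and Nr4a1, an orphan nuclear receptor induced by stimulation, had 1 island of 7400 bp with 72 and 116 reads. The median fold of the 20 islands was 2.08. The NF-kB and TNF receptor list had 7 of 20 with 11 islands. In it Nfkbia, the inhibitor of NF-kB, had 3 islands (50 and 78 reads in all), Tnfaip3, the deubiquitinase that ends NF-kB signalling, had 2 (16 and 6, and 38 and 38 reads) and Tnfrsf9, a costimulatory receptor, had 2 (45 and 77 in all). The pooled fold of Tnfaip3 was 3.56 (2.35 to 5.43) and that of Nfkbia 1.86 (1.28 to 2.69).

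Cytokine receptors and their signalling genes had 8 of 22 nearest genes with 12 islands. Socs3 and Cish, which restrain STAT signalling, had 3 islands (38 and 50 reads) and 2 (31 and 58 reads), and Tgfbr2 had 2 (24 and 26 reads). The pooled folds of Socs3, Cish and Tgfbr2 were 2.20 (1.41 to 3.43), 1.55 (0.969 to 2.44) and 2.68 (1.47 to 4.85). Homing and adhesion genes had 6 of 18 with 8 islands, led by Cd69, which holds lymphocytes in tissue, with 22 and 48, 12 and 12, and 20 and 18 reads. Ccr7 and Selplg, which act in entry into lymphoid tissue, had 1 island each (21 and 30, and 14 and 22 reads). Lymphoid transcription factors had 8 of 20 with 13 islands, including 3 each at Bhlhe40 (42 and 54 reads) and Ets1 (42 and 55 reads) and 2 at Ikzf2 (21 and 15 reads).

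Among markers of other cells, 0 of 14 T cell genes and 0 of 13 B cell genes were nearest to an intergenic island, Cd3e, Cd4 and Cd79a included, and 1 of 14 natural killer and type 1 innate lymphoid genes was. The T and B cell genes had only 0.351 and 0.429 Mb of intergenic sequence nearest to them, so at the overall 4.25 islands per Mb their zeros are little removed from the background of the table. That gene, Klrb1c, encodes NK1.1, which the sort was gated against, and had 3 islands with 43 and 47, 15 and 35, and 28 and 64 reads, of which 1 was called. Myeloid genes had 5 of 14 with 8 islands, led by Cebpb with 4 (52 and 79 reads), Fcgr3 with 1 (31 and 34 reads) and Irf8 with 1 (12 and 13 reads). Epithelial and stromal genes had 4 of 14 with 1 each (Epcam, Pdgfrb, Krt8 and Pecam1), and housekeeping genes 3 of 15, Ywhaz and Eef1a1 among them. Myeloid, epithelial and stromal genes were among the nearest genes, which were thus not limited to those of the labelled cell type. The myeloid and housekeeping genes had 18.4 and 16.2 islands per Mb, and LTi identity genes had 8.14. Epithelial and stromal genes had 7.01, and the density of the cytokines and TNF ligands lay between those of LTi identity and housekeeping genes. The myeloid, housekeeping and LTi identity densities rest on only 8, 4 and 9 islands. No interval was computed for these densities, so their order was not tested. The part of other cells in these islands was not tested.

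**Figure D4:**
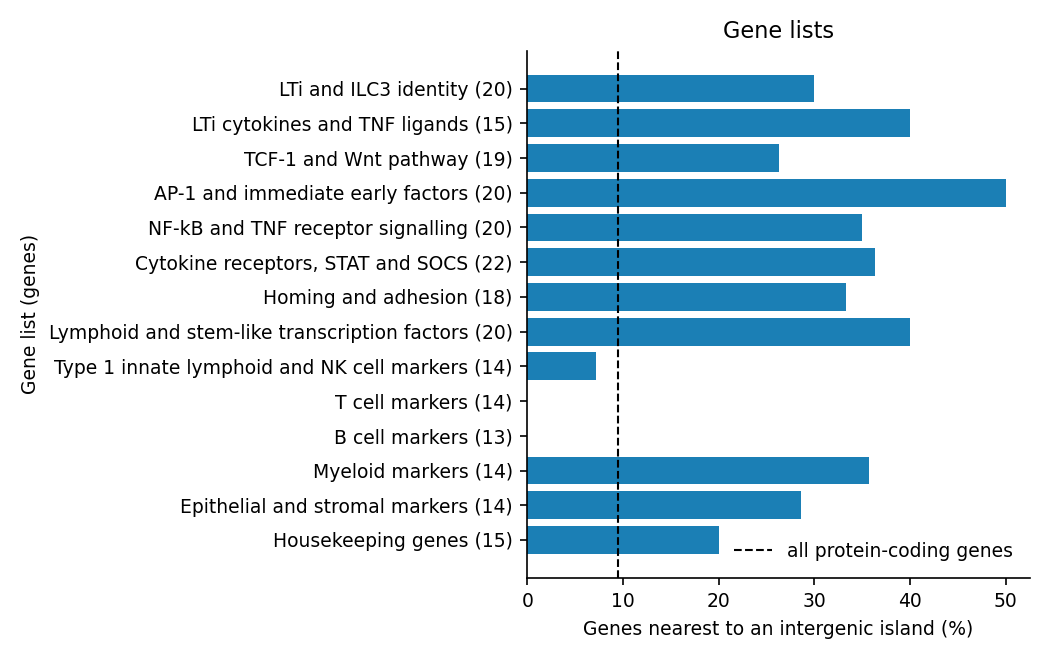
Share of the protein-coding genes of each of 14 lists that are nearest to an intergenic island (horizontal axis, percent), with the list size in parentheses. The dashed line is the 9.46% of all protein-coding genes. The AP-1 and immediate early list reaches 10 of 20 genes, and T cell and B cell markers are at 0. The lists were written with earlier results of these data known.

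Antigen receptor segments are not counted as protein-coding genes here, and 3 intergenic islands lay over them. All 4 islands of Dad1 lay from 1885 to 11685 bp away on the side of the T cell receptor alpha constant gene, an interval known to hold the alpha-chain enhancer. The first, at chr14:54221801-54223800, overlapped Trac and had 21 and 27 reads (fold 2.26, 1.21 to 4.14). The next, at chr14:54224601-54229200, had 75 and 80 reads (fold 2.72, 1.96 to 3.77), and the other two had 11 and 23 reads and 10 and 8 reads. The second island thus held most of the reads near Dad1. An island over Trbv1, a T cell receptor beta variable segment, had 13 and 5 reads (fold 7.54, 2.52 to 27.02), and 1 over Igkc, the kappa constant gene, had 9 and 8 reads (fold 3.26, 1.12 to 9.72). What part other lymphocytes play in these reads was not tested.

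Of the intergenic islands, 862 (32.8%) overlapped an annotated non-coding gene, and 731 of them a lncRNA gene. The share of genes under an intergenic island, among genes lying 1 to 50 kb from protein-coding genes, differed widely by kind. It was 118 of 262 (45.0%, 38.9 to 51.3) for transfer RNA (tRNA) genes, 24 of 192 (12.5%, 8.18 to 18.0) for miRNA genes, 475 of 4075 (11.7%, 10.7 to 12.7) for lncRNA genes, 20 of 332 (6.02%, 3.72 to 9.15) for small nuclear RNA genes and 11 of 316 (3.48%, 1.75 to 6.14) for small nucleolar RNA genes. For pseudogenes it was 33 of 4506 (0.732%, 0.505 to 1.03), and for transcribed pseudogenes it was 17 of 240 (7.08%, 4.18 to 11.1). These intervals treat each gene as independent, but 1 island can cover several neighbouring genes. The 118 tRNA genes lay under 62 islands and the 24 miRNA genes under 15, so their intervals are too narrow. Islands covered 0.780% of this sequence, but the share of genes touched by an island also grows with gene length and island width. The 0.780% is therefore not the share to be expected for a kind of gene. The tRNA genes stood highest although their median length was 73 bp, against 7164 bp for lncRNA genes.

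**Figure D5:**
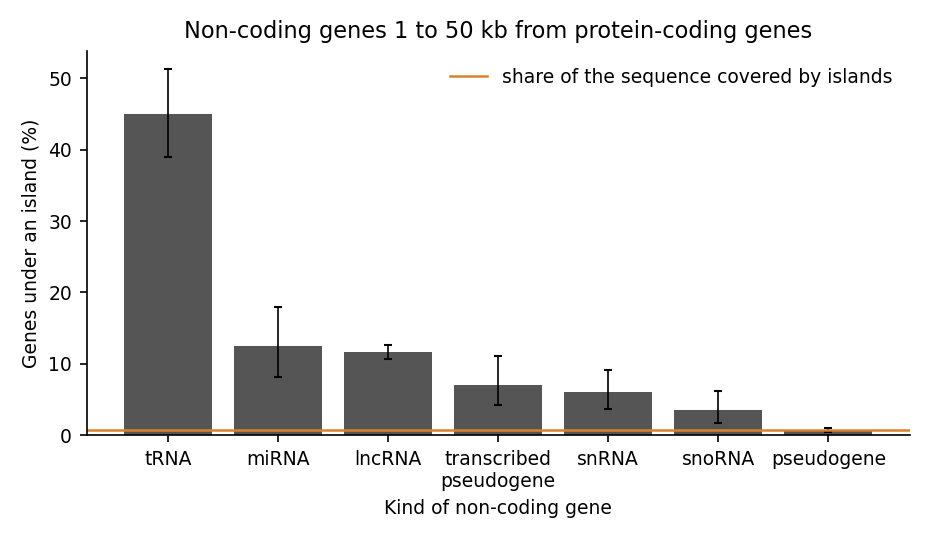
Share of non-coding genes 1 to 50 kb from protein-coding genes that lie under an intergenic island (vertical axis, percent), by kind of gene. Error bars are exact 95% binomial intervals, which treat genes as independent although 1 island can cover several. The orange line is the 0.780% of this sequence under islands, which is not the share to be expected for a kind of gene. The tRNA genes reach 45.0%, transcribed pseudogenes 7.08% and other pseudogenes 0.732%.

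RNA polymerase III transcribes tRNA genes, which are short and often stand in clusters. The 118 genes lay under 62 islands, which had a median of 24 peak-side and 40 control-side reads, above the medians of 13 and 18 of all intergenic islands, and a lower median fold of 1.65. Of the 62, 31 covered 1 tRNA gene and 31 covered more. Chromosome 13, with the large tRNA cluster beside the histone genes, held 40 of the 118, out of 103 there. The island with most tRNA genes, at chr13:21167401-21173400 near Trim27, covered 7 and had 32 and 92 reads (fold 1.01, 0.653 to 1.52), so it was not called. The next, at chr19:12009601-12013800 near Osbp, covered 5 and had 45 and 90 reads (fold 1.45, 0.991 to 2.10). Among small nuclear RNAs, Rn7sk, the 7SK RNA that holds elongation factor P-TEFb inactive, lay under an island with 22 and 48 reads (fold 1.33, 0.764 to 2.25). Rnu11, of the minor spliceosome, lay under 1 with 29 and 36 reads (fold 2.34, 1.38 to 3.92).

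Among 3887 lncRNA promoter windows in this sequence, 265 (6.82%) lay under 225 intergenic islands. These islands were deeper than the rest, with medians of 18 and 26 reads against 13 and 17, and had a lower median fold (1.93 against 2.29) at a like share called (80.4% and 81.5%). The windows under an island had a median of 53.7% G and C and 8 CpG, against 47.7% and 3 in the windows without one and 62.3% and 23 at protein-coding promoters with an island. The GC box was present in 32.8% of the windows under an island, in 9.66% of those without and in 35.7% of all 32851 promoters in the RefSeq table. The ETS core was present in 14.7%, 6.29% and 14.9%, and the E-box CACGTG in 12.1%, 5.30% and 7.15%. The TATA box was less frequent under islands (9.81%) than without (15.9%), with 13.6% of all promoters. All promoters here mix coding and lncRNA genes, with and without islands. At protein-coding promoters with an island, the GC box was present in 70.3%, the ETS core in 32.1%, the E-box in 10.9% and the TATA box in 5.65%.

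The shares with and without an island lay closer together for the TCF/LEF, RUNX and AP-1 motifs. The TCF/LEF motif CTTTGAT was present in 4.53% of windows under an island and 4.75% of those without, with 3.73% of all promoters. For its second form, CTTTGAA, the shares were 5.28%, 6.76% and 5.14%. The RUNX motif was present in 7.17%, 6.90% and 5.27%, and the AP-1 motif TGACTCA in 7.17%, 7.12% and 5.20%. Protein-coding promoters with an island held CTTTGAT in 2.36%, CTTTGAA in 3.23%, the RUNX motif in 3.18% and the AP-1 motif in 2.67%. The NF-kB consensus motif was rare, in 2 of 265 windows under an island and 4 of 3622 without. The shares of windows under an island and without one describe lncRNA promoters, not the islands at large, and G and C content moved with the GC box shares.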

How the data were processed

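DNase-seq of 4 libraries (2 Tcf7+/+, 2 Tcf7fl/fl-RorcCre) was deposited as 1 table of islands for the series. The submitters' processing notes name Bowtie2 2.4.2, SICER 2.0 and build mm10, per the labels. Per the file headers, each island has unnormalized peak-side and control-side read counts, a p-value, a fold (a ratio) and an FDR (q-value), all as deposited by the authors. All 16584 deposited folds were recomputed from the counts as peak-side reads over control-side reads times 0.345, with 0.25 in place of 0. Library totals, the aligner's settings and the libraries behind either side were not given in the sources used. The planned models with replicate spread between genotypes were therefore not run.

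Distances were measured to the ends of protein-coding genes in RefSeq GRCm38.p6 (coordinates 1-based). All 240 listed symbols matched, 238 of them protein-coding. Promoter and miRNA sequences came from RefSeq tables of that build, and 23 of 24 miRNA genes under an island matched. Motif shares counted exact matches of 14 motifs on both strands. Intervals are exact at 95% and cover counting error only, since PCR reads lacking molecular identifiers cannot be counted as independent molecules. Named genes are the 12 with most islands, the 12 with most summed peak-side reads and up to 3 with most islands per list. Named islands are the 10 with most peak-side reads, the 8 called islands of largest fold and the 5 islands of smallest fold (both at or above the median peak-side reads), and 2 on each side of each distance limit. Other named features were chosen after their values were seen. The members and lists were chosen with earlier results of these data known. Classification and intervals were tested on simulated data. Python 3.11.15, pandas 2.3.3, numpy 2.4.6 and scipy 1.17.1 were used. Some genes are not reported here.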

Additional observations from a re-analysis of the deposited data

How the results depend on the processing

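The results rest most on the scaling of the control side. With the sides scaled by their reads in all islands (a factor of 0.659 in place of 0.345), the called share was 8.59% (226 islands, beside 5.93% of all islands), the median fold 1.19, and 931 folds fell under 1. Pooled folds then fell below 1 for Bahcc1 (0.965), Csf2ra (0.615), Gm40035 (0.588), Ier5 (0.744), Ly6c2 (0.525), Pak3 (0.989), Ptma (0.912), Sfi1 (0.738) and Zfp825 (0.780). This pooled alternative was added after seeing the data. The called share was 63.1% at an FDR under 0.01, 86.4% with at least 20 peak-side reads, 83.0% over 5 kb and 79.4% up to 20 kb. The median fold was 2.05 with at least 20 reads, 2.49 in called islands only, 2.21 up to 20 kb and 2.36 with all annotated genes in place of protein-coding genes. The ratio of density at 1 to 5 kb to that at 20 to 50 kb, 2.27 as reported, was 4.16 with all annotated genes and 2.02 in called islands. Genes with 3 or more islands, 96 as reported, numbered 227 with islands given to both flanking genes, 63 with called islands only, 27 with all annotated genes and 68 with islands within 2 kb merged. Of the 12 genes with most islands, 6, 7, 2 and 7 were shared under these 4 alternatives. Of the 12 genes with most reads, 6 were shared when ranked by the most read-rich island, 7 with both flanking genes and 7 with called islands only. The share of nearest genes with a gene-end island, 65.2%, was 70.4% with a 2 kb window (49.3% of all genes) and 53.1% in called islands (38.9% of all genes). With the 2 kb window, an intergenic island over 1 and up to 2 kb away counts as the gene-end island of its own nearest gene. Part of that rise was therefore fixed by the definition. Other causes of these shifts were not tested. The 26 other recomputed summary values, of which the count with merged islands is 1, moved by no more than the spread or factor set for them. No paired analysis was possible because no column of the table carries a library or replicate number, and leaving out a library was not possible for the same reason.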
